A study of Mus musculus with 172 samples.

Results

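The 6 genes described here are Pou5f1, which encodes OCT4, and its POU-family paralogues Pou2f1, Pou2f2, Pou2f3, Pou3f1 and Pou6f1. They were chosen by symbol among the 49671 genes counted in each cell. Mice carrying 1 targeted allele (Oct4+/-, mixed genetic background) were mated with each other, and single inner cell mass (ICM) cells of their blastocysts were profiled by Smart-seq2, a full-length single-cell RNA-seq method. At E3.5 the cells came from WT embryos (42 cells, 5 embryos), HET embryos with 1 targeted allele (16 cells, 2 embryos) and MUT embryos with no intact allele (29 cells, 4 embryos). At E4.5 the WT and HET cells are labelled epiblast (EPI, 37 cells) or primitive endoderm (PrE, 29 cells), each from the same 2 WT and 4 HET embryos, and the 19 MUT cells of 2 embryos carry no lineage label. ICMs were freed of the trophectoderm (TE) by immunosurgery and genotyped on its lysate, and every MUT embryo had a heterozygous mother. Genotypes are those of whole embryos, and which exons the targeted allele lacks is not given in the sources used here.

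POU factors bind DNA through a POU-specific domain joined to a homeodomain, and the classical binding site of the family is the octamer. OCT4 is the family member that defines pluripotent cells: with SOX2 it occupies the enhancers of genes of the ICM and epiblast, and embryos without it form blastocysts whose inner cells do not remain pluripotent. Pou2f1 (OCT1) is found in most tissues, Pou2f2 (OCT2) in B cells, Pou2f3 in tuft cells and epidermis, Pou3f1 (OCT6) in the later epiblast and Schwann cells, and Pou6f1 (BRN5) mainly in the nervous system.

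In the GRCm38 annotation Pou5f1 (ENSMUSG00000024406) lies on chromosome 17 at 35506018-35510772, plus strand, and Pou6f1 (ENSMUSG00000009739) on chromosome 15 at 100575318-100599984, minus strand. Their upstream sequences are shown because these genes had the clearest changes with stage. RefSeq promoter windows (build GRCm38.p6) were matched for 4 of the 6 genes, Pou5f1, Pou2f1, Pou2f2 and Pou6f1. The Pou5f1 stretch is chr17:35505782-35506017, plus strand, with the GC box GGGGCGG and the nuclear receptor half-site AGGTCA in capitals. The Pou6f1 stretch is chr15:100599985-100600234, minus strand, with the 7 bases TTTGCAT in capitals, the reverse complement of the octamer's first 7 bases ATGCAAA.
Pou5f1: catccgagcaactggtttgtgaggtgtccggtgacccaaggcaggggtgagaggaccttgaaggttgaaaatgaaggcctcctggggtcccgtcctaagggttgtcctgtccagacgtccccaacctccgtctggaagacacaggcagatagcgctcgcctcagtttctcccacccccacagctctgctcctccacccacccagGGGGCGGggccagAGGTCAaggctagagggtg
Pou6f1: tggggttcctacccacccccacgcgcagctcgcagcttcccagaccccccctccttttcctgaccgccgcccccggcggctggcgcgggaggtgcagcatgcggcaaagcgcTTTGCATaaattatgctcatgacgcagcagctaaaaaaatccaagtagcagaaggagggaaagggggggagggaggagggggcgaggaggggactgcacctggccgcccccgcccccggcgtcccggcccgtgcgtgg

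Each motif was searched on both strands of 32851 promoter windows. GGGGCGG occurred in 23.2% of them and in windows of all 4 matched genes. AGGTCA occurred in 16.3%, and among the matched genes only for Pou5f1, where it begins 19 bases before the annotated start. ATGCAAA occurred in 4.63%, and among the matched genes only for Pou6f1. The whole octamer ATGCAAAT, which contains ATGCAAA, occurred in 1.74% and in no window of the matched genes. These matches are letters in a window and not evidence of binding.

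Cells held between 363819 and 4644070 gene counts, and 9 were shallow, below 0.5 of the median of their stage. Counts were summed per embryo, and at E4.5 per embryo and lineage, which gave 25 sums. Levels are counts divided by library size and given as CPM, scaled by trimmed means (TMM). In such sums fewer cells with a transcript and less RNA per cell cannot be told apart. The EPI and PrE labels follow the paper's clustering of these same transcriptomes, so markers are no independent check of them. All 10 EPI markers were called higher in EPI than in PrE, against 4.61% of all genes. All 10 PrE markers were called higher in PrE, against 5.2% of all genes. In MUT sums the 12 TE markers together reached 824 to 1572 CPM at E3.5, against 243 to 976 CPM in WT and HET, and 5269 to 5554 CPM at E4.5, against 80.1 to 220 CPM in EPI and 106 to 529 CPM in PrE. All 12 TE markers had counts in the E4.5 MUT cells and all but Gata2 in the E3.5 MUT cells. Counts were also found for all 12 in E3.5 WT and in E3.5 HET cells, for 9 in EPI and for 10 in PrE. The summed level of the 10 PrE markers was 404 to 655 CPM in E3.5 MUT embryos and 97.9 to 301 CPM in WT and HET, with Sox17, Sox7 and Foxa2 at 0 in MUT. In E4.5 MUT it was 939 to 956 CPM, with Sox7 and Foxa2 at 0, against 2933 to 6976 CPM in PrE and 5.57 to 75.4 CPM in EPI. The 10 EPI markers together reached 577 to 1243 CPM in E3.5 MUT embryos and 1035 to 1685 CPM in WT and HET. In E4.5 MUT they reached 619 to 1422 CPM, against 2561 to 4785 CPM in EPI and 294 to 446 CPM in PrE. The part of these differences in the results on the POU genes was not tested. The deposited files name plate 2 for every E3.5 cell and plate 1 for every E4.5 cell, so stage and plate cannot be told apart.

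Pou5f1 was by far the most abundant of the 6 genes. It received 39287 of the counts, against 6427 for Pou2f1, 1422 for Pou6f1, 1242 for Pou2f3, 31 for Pou3f1 and 13 for Pou2f2. Per kilobase of exon, the mean level in E3.5 WT and HET embryos was 132 CPM for Pou5f1, 1.71 CPM for Pou6f1, 1.56 CPM for Pou2f3 and 0.704 CPM for Pou2f1. On this scale Pou6f1 (1.06 to 2.44) was above Pou2f1 (0.187 to 1.15) in 7 of 7 embryos, although the ranges overlapped. Pou2f3 ran from 0.057 to 3.09, so its place beside either is not resolved beyond the spread. Pou3f1 stood at 0.0153 and Pou2f2 at 0.0034 CPM per kilobase.

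Loss of Pou5f1 RNA was checked first, in every embryo. The 5 E3.5 WT embryos had 207, 267, 338, 410.5 and 432 CPM, and the 2 HET embryos 205 and 223 CPM. The 4 E3.5 MUT embryos had 2.76, 3.63, 4.85 and 5.96 CPM. All 4 lay far below every control embryo. The mean was 4.3 ± 1.4 CPM (SD, n = 4) in MUT and 297 ± 96.6 CPM (n = 7) in WT and HET, so that MUT kept 1.45% of the control level. The log2 fold change was -6.11 ± 0.37 (SE), with an adjusted p of 3.19e-06 in edgeR's quasi-likelihood test. At E4.5 no Pou5f1 count was found in either MUT embryo. EPI had 71.2 to 248 CPM and PrE 45.7 to 149 CPM, so MUT was at least 1370-fold lower than EPI (adjusted p = 0.000317, edgeR) and at least 782-fold lower than PrE (adjusted p = 0.000845, edgeR). These bounds set the MUT embryos at 3 counts over the group and are the lower of the values from mean CPM (1370 and 861) and from pooled counts without TMM (1610 and 782). Both comparisons use the same MUT embryos.

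**Figure D1:**
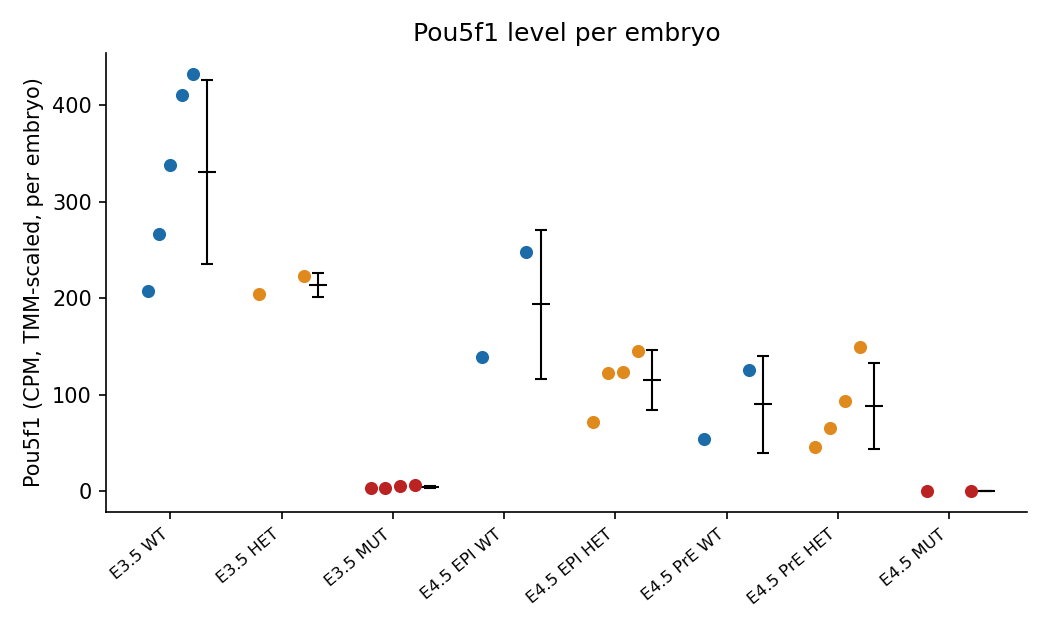
Pou5f1 level per embryo in CPM (y axis, linear) in each group (x axis). Points are embryo sums, coloured by genotype, and black bars give the mean and SD. The 4 E3.5 MUT embryos lie between 2.76 and 5.96 CPM and the 2 E4.5 MUT embryos at 0, while WT and HET embryos lie between 45.7 and 432 CPM.

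The RNA left in E3.5 MUT cells was low but present in every MUT embryo. The counts were 41, 48, 32 and 35 in embryos 10, 12, 17 and 19, or 156 of 43209670 gene counts. Of the 29 cells, 21 had at least 1 count (72.4%, exact 95% interval 52.8 to 87.3%), 9 of them with 1 to 3 counts and 6 with 10 or more. The 8 cells without a count had a median of 1215226 gene counts, against 1379848 in the 21 with counts. Thinning every cell to the shallowest cell of the stage, 363819 counts, would leave 50.2% of cells with a count, and a minimum of 5 counts left 34.5%. In embryo 19 a single cell held 32 of the 35 counts. No MUT cell came near the controls: the highest had 21.2 CPM, while the lowest of the 58 WT and HET cells had 67.2 CPM. All 58 control cells had Pou5f1 counts, 61 at the least.

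No count was seen in any of the 19 E4.5 MUT cells, in 29410389 gene counts. A count of 0 allows up to 15.8% of cells with a count if 3 cells are taken as the limit (17.6% by the exact interval) and a level of up to 0.102 CPM, counting error only. Neither limit covers RNA that the method fails to capture, and cells of 1 embryo are not independent. At the share left in E3.5 MUT cells, 106 counts would have been found. E4.5 WT and HET cells, on the same plate, had 14064 Pou5f1 counts. The difference between E3.5 and E4.5 MUT embryos was 4.3 CPM (exact permutation test, two-sided, p = 0.0667), which is the smallest p that 4 against 2 embryos can give. The 10 oocyte transcripts summed to 3.05 to 36.9 CPM in MUT and 9.98 to 36.9 CPM in WT and HET, and 6 of the 10, among them Bmp15 and Nlrp5, were at 0 in MUT. Zp1 and Zar1 were at 0 in WT and HET too. Counts were found for 8 of the 10 in WT, 2 in HET and 4 in MUT, and Bmp15 and Nlrp5 were at 0 in HET as well. Bmp15 had only 5 counts over all cells of both stages. At E4.5 only Ooep had counts in MUT, at 119.8 to 205.3 CPM, and it averaged 123 CPM in EPI and 122.5 CPM in PrE against 16.5 CPM at E3.5 in WT and HET. The antisense gene Gm19553 shares 14.1% of the exon bases of Pou5f1, where reads without strand cannot be told apart. Gm19553 had no count in any MUT embryo.

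**Figure D2:**
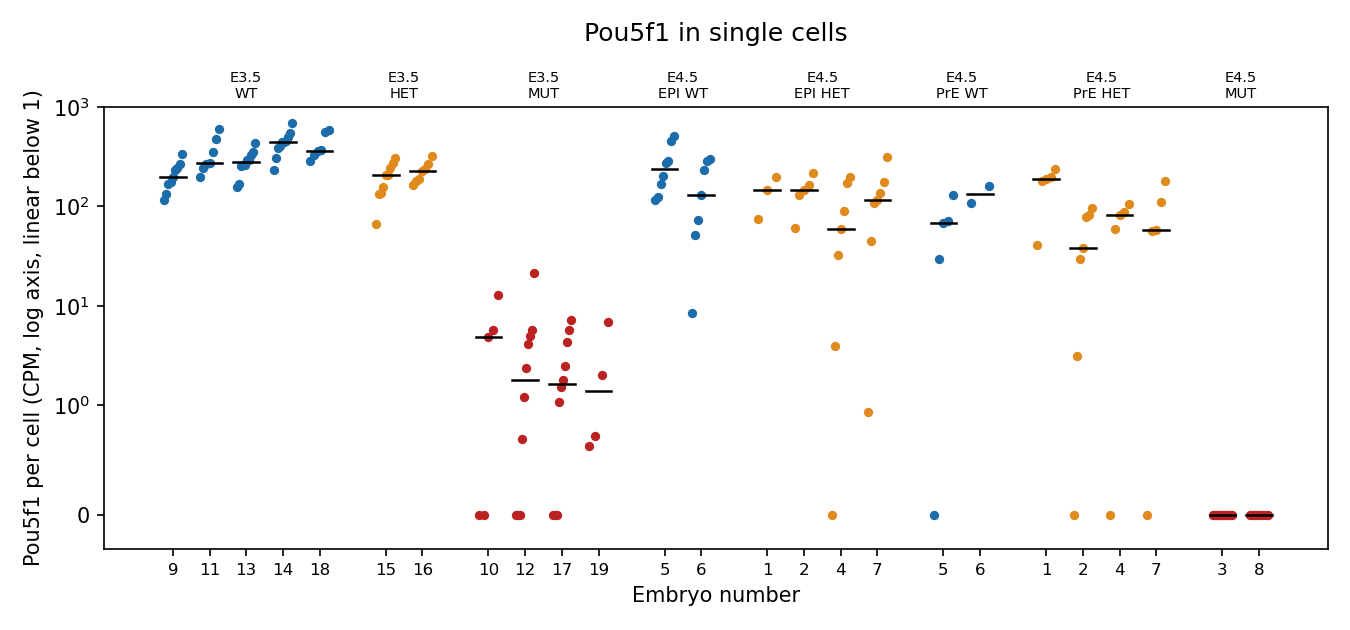
Pou5f1 in single cells (y axis, CPM, logarithmic and linear below 1) by embryo number (x axis), grouped by stage, lineage and genotype. Points are cells and black lines embryo medians. All E3.5 MUT cells, at 21.2 CPM or less, lie below all E3.5 WT and HET cells, and all 19 E4.5 MUT cells lie at 0.

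The interaction term, which compares the MUT effect at E4.5 with that at E3.5 over the 19 embryos, was called for Pou5f1 (adjusted p = 0.000545, edgeR), with MUT further below control at E4.5. Across all genes 5.46% were called for this term, 2.71% higher and 2.75% lower. The E4.5 MUT embryos were at 0, where a fitted fold change depends on the prior count. When cells rather than reads were weighted equally on a log scale, the term was 0.37 with an adjusted p of 0.782 (limma). No paralogue was called for the interaction by edgeR over all embryos (adjusted p = 0.0899 for Pou2f3 and 0.0962 for Pou6f1). DESeq2 called both (adjusted p = 0.0218 and 0.0272), and edgeR called Pou6f1 without embryo 5 (adjusted p = 0.0289). Without MUT embryo 8 both terms turned negative (-0.169 and -3.3).

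Between HET and WT embryos Pou5f1 did not differ beyond the spread within any single stratum. At E3.5 HET stood at 214 ± 12.8 CPM (n = 2) and WT at 331 ± 95.1 CPM (n = 5), so that HET had 64.5% of WT. The lowest WT embryo, at 207 CPM, lay between the HET embryos. In EPI the HET embryos 1, 2, 4 and 7 had 122, 123, 71.2 and 145 CPM and the WT embryos 5 and 6 had 248 and 139 CPM, or 59.6% of WT. In PrE the HET embryos had 149, 45.7, 65 and 93.4 CPM and the WT embryos 54.5 and 125 CPM, or 98.2% of WT. HET and WT overlapped in all 3 strata. Exact permutation tests (two-sided) gave p = 0.19 in E3.5 ICM, 0.133 in EPI and 1.0 in PrE (adjusted over the 3 strata 0.286, 0.286 and 1.0), and with 15 arrangements the E4.5 strata cannot reach 0.05. The EPI and PrE tests are not independent, since both draw on 6 shared embryos.

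Over both stages the whole-ICM sums of HET passed an exact test against WT. At E3.5 they were 194 and 220 CPM in HET and 203, 261, 329, 406 and 421 CPM in WT. At E4.5 they were 68.4, 74.7, 128 and 139 CPM in HET and 137 and 175 CPM in WT. The highest HET embryo overlapped the lowest WT embryo at each stage. The E4.5 sums pooled 15 EPI and 7 PrE cells in WT but 22 and 22 in HET. Pou5f1 averaged 141 CPM in EPI and 88.8 CPM in PrE, a difference that was not called. The part of this unlike lineage mix in the lower HET sums was not tested. The mean log2 difference was -0.63, or 64.6% of WT, and permuting genotypes within stage over all 315 arrangements gave p = 0.0317 (exact, two-sided). Leaving out any 1 of embryos 2, 4, 5, 11, 14, 15 and 18 moved this exact p to between 0.0533 and 0.114. The edgeR fit with stage as a covariate gave a log2 fold change of -0.62 ± 0.23 (SE), a ratio of 0.649 with a 95% interval from 0.464 to 0.91. Its unadjusted p was 0.0158 and its adjusted p over all genes 0.642 (edgeR). In 8 alternatives of this comparison the log2 fold change lay between -0.744 and -0.343.

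No member was called between HET and WT, at E3.5 or over both stages. edgeR called 0% of the 13351 genes tested at E3.5 (1056 at an unadjusted p under 0.05, 178 called by DESeq2) and 0% of the 15462 tested over both stages (1085 unadjusted, 104 called by DESeq2). Over both stages the log2 fold change was -0.51 for Pou2f1 (95% interval -1.34 to 0.32), -1.72 for Pou6f1 (-3.89 to 0.22) and 0.16 for Pou2f3 (-2.95 to 3.26). The intervals include large changes in both directions for Pou2f3, which these embryos cannot resolve.

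Spread between cells was read within embryos. Within an embryo the coefficient of variation of Pou5f1 CPM was 24.8 to 42.5% in E3.5 WT and HET embryos. It was 39.9 to 99.2% in EPI and 27.4 to 83.7% in PrE. In single E3.5 cells the median was 302 CPM in WT and 209 CPM in HET. In EPI cells it was 204 CPM in WT and 124 CPM in HET, and in PrE cells 70.8 and 80.4 CPM. All but 1 of 37 EPI cells had Pou5f1 counts (97.3%, exact interval 85.8 to 99.9%), as did 25 of 29 PrE cells (86.2%, 68.3 to 96.1%).

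From E3.5 ICM to E4.5, Pou5f1 fell in both lineages of WT and HET embryos. EPI had 141 ± 58.4 CPM (n = 6) and PrE 88.8 ± 41.5 CPM (n = 6), against 297 ± 96.6 CPM at E3.5. The log2 fold change was -1.05 ± 0.27 in EPI (adjusted p = 0.00786, edgeR) and -1.75 ± 0.30 in PrE (adjusted p = 0.000391, edgeR). Every PrE sum lay below every E3.5 embryo, while EPI and E3.5 overlapped. In these comparisons 31.9% and 31.7% of all genes were called, so a call is common here. Both use the same E3.5 embryos. The controls were 5 WT and 2 HET at E3.5 but 2 WT and 4 HET at E4.5, and with WT embryos alone the EPI change was -0.80 (adjusted p = 0.126, edgeR). Between EPI and PrE, Pou5f1 was 1.59 times as high in EPI (95% interval 0.963 to 2.64) and was not called (adjusted p = 0.279, edgeR), where 9.81% of genes were, 4.61% higher and 5.2% lower.

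Among the paralogues edgeR tested, Pou2f3 alone was called between MUT and control embryos, and it fell. In E3.5 WT embryos it stood at 0.417, 4.83, 4.85, 5.04 and 9.53 CPM and in HET embryos at 0.176 and 8.78 CPM. It had no count in any of the 4 MUT embryos. All 7 control embryos had counts, 3 to 125 each, although embryos 9 and 15 had only 5 and 3, each in 1 cell. MUT was at least 62.3-fold lower in mean CPM (388 counts against 0, adjusted p = 0.0191, edgeR). The adjusted p stayed at 0.0434 or lower in all 17 alternatives run. Counts were found in 24 of 58 control cells (41.4%, exact interval 28.6 to 55.1%) and in 0 of 29 MUT cells, which allows up to 10.3% of cells with a count (11.9% by the exact interval). After thinning to equal depth the control share was 38.4%.

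At E4.5 Pou2f3 was found in few cells at high level. In EPI the HET embryos 1, 2, 4 and 7 had 27.4, 0, 22.1 and 1.62 CPM and the WT embryos 5 and 6 had 13.9 and 0 CPM. Only 5 of 37 EPI cells held its 638 counts, up to 274 in a cell. No PrE sum had a count. In MUT, embryo 3 had none and embryo 8 had 17.4 CPM, from 2 cells. Against EPI the log2 fold change in MUT was -0.35 with a 95% interval from -5.98 to 5.29 (adjusted p = 0.971, edgeR). Against PrE the gene did not pass the filter on low counts (adjusted p = 0.206 without the filter, edgeR).

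Pou6f1 was found mainly in the E3.5 ICM. The 5 WT embryos had 8.24, 9.94, 11.5, 14.4 and 14.6 CPM and the HET embryos 7.34 and 16.9 CPM. The MUT embryos 10, 12, 17 and 19 had 5.09, 7.11, 10.3 and 0 CPM. The ranges overlapped, and the log2 fold change of -1.06 ± 0.79 was not called (adjusted p = 0.493, edgeR). The share of cells with counts was 62.1% both in WT and HET cells (36 of 58) and in MUT cells (18 of 29). By E4.5 it was nearly gone from control cells. EPI held 3 counts in all, in 1 cell, against 966 at E3.5. The count ratio was 0.00443 (exact 95% interval 0.000911 to 0.013, counting error only, adjusted p = 6.56e-05, edgeR). PrE held 21 counts in 1 cell of embryo 5 (log2 fold change -4.97 ± 1.34, adjusted p = 0.0096, edgeR). With WT embryos alone the PrE change was -3.35 and lost the call (adjusted p = 0.0746, edgeR). In E4.5 MUT, embryo 8 had 184 counts in 1 cell and embryo 3 none, and the difference from PrE was not called (adjusted p = 0.469, edgeR).

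Pou2f1 did not pass the test in MUT at either stage. At E3.5 the WT embryos had 6.92, 9.77, 13.3, 13.5 and 19.1 CPM, the HET embryos 3.11 and 16.1 CPM and the MUT embryos 0.436, 3.1, 10.2 and 15.7 CPM. The log2 fold change in MUT was -0.65 ± 0.74 (adjusted p = 0.684, edgeR). Cells with counts made up 81.0% of controls and 51.7% of MUT. At E4.5 MUT had 10.4 and 29.4 CPM, within the range of 1.63 to 74.5 CPM in EPI and 3.2 to 72 CPM in PrE. The log2 fold changes were -0.95 against EPI (95% interval -3.36 to 1.46) and -0.78 against PrE (-3.15 to 1.60), so a rise of 3.03-fold over PrE is still inside the interval.

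With stage, the calls for Pou2f1 depended on single embryos. The mean was 37.1 ± 26.8 CPM in EPI and 33.4 ± 25.2 CPM in PrE, against 11.7 ± 5.48 CPM in E3.5 WT and HET embryos. The EPI call was at the threshold (log2 fold change 1.69 ± 0.62, adjusted p = 0.04999, edgeR) and was lost without the low-count filter (adjusted p = 0.0592), with cells weighted equally (0.46, adjusted p = 0.537, limma) and without any 1 of embryos 4, 5, 6, 7, 9, 11, 13, 14, 15, 16 and 18 (adjusted p from 0.0537 to 0.13, edgeR). The PrE value was 1.51 ± 0.61 (adjusted p = 0.0736, edgeR, and 0.0297 by DESeq2), and edgeR called it without embryo 4 (adjusted p = 0.0423) or embryo 5 (adjusted p = 0.0151). Single cells carried much of the signal: in embryo 5, 1 of 8 EPI cells held 591 of 1214 counts. Pou2f1 shares 18.1% of its exon bases with the antisense gene Cd247, and Smart-seq2 reads do not record strand. Cd247 had 59, 36, 12 and 53 counts in PrE of embryos 1, 2, 4 and 5, and 2 in E3.5 embryo 9.

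**Figure D3:**
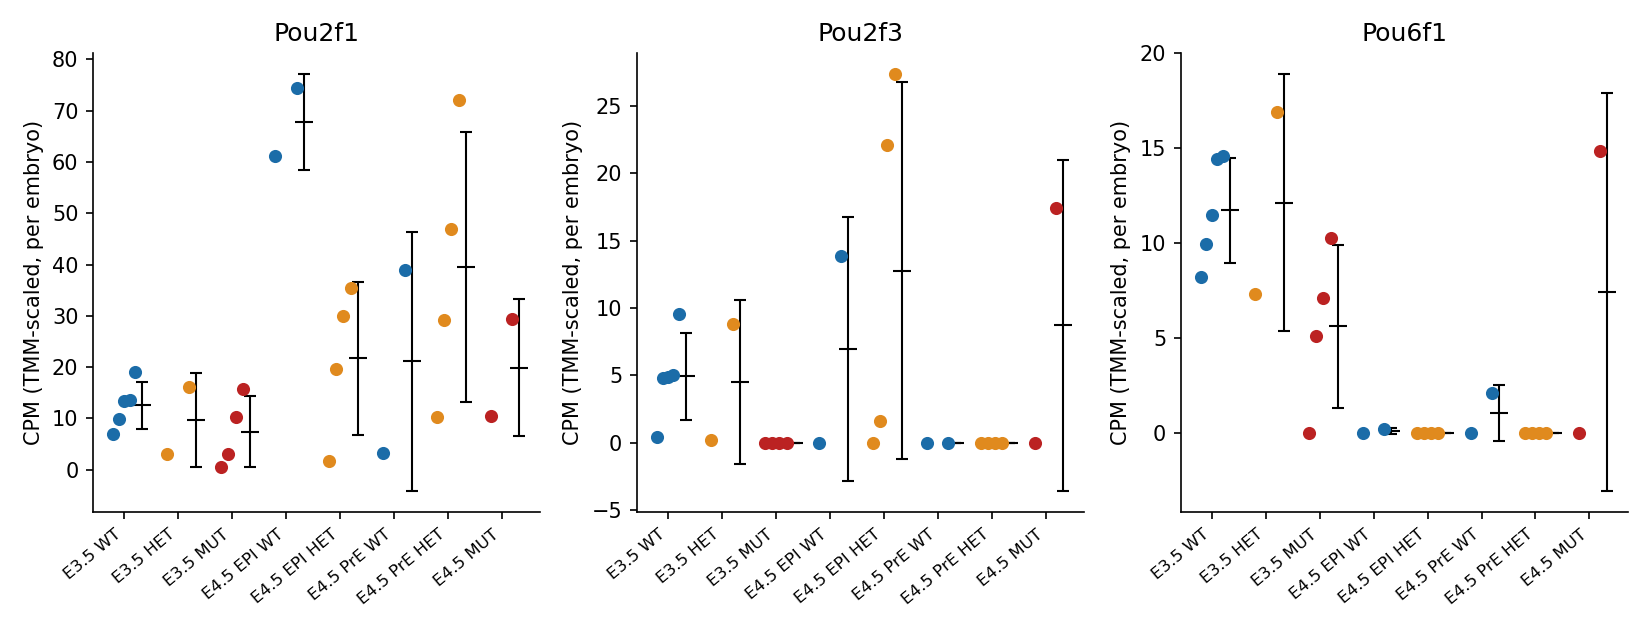
Levels of Pou2f1, Pou2f3 and Pou6f1 per embryo (y axes, CPM, linear) in each group (x axes). Points are embryo sums coloured by genotype, and black bars give the mean and SD, which can reach below 0 where 1 embryo is high. Pou2f3 is at 0 in all 4 E3.5 MUT embryos, and Pou6f1 is at or near 0 in E4.5 EPI and PrE.

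Pou3f1 and Pou2f2 were barely detected. Pou3f1 had 31 counts, 21 of them in 1 EPI cell of WT embryo 5, 3 in 1 EPI cell of HET embryo 7 and 7 in 1 E3.5 HET cell. Pou2f2 had 13 counts, 11 of them in 1 PrE cell of WT embryo 5. Neither had a count in any of the 48 MUT cells, and neither passed the filter on low counts in any comparison. For both genes the limits on cells with a count are those given above for 0 of 29 and 0 of 19 cells.

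Across the 3 MUT comparisons no paralogue was called higher. At E3.5, 4 of the 6 genes passed the filter and 2 were called, Pou5f1 and Pou2f3, both lower, against 6.18% of all 12075 genes called, 2.98% lower and 3.2% higher. Against EPI 3 passed and 1 was called, Pou5f1, lower, against 4.92% of all genes called, 2.62% lower and 2.3% higher. Against PrE 3 passed and 1 was called, again Pou5f1, lower, against 3.81% of all genes called, 2.07% lower and 1.74% higher. Pou6f1 did not pass the filter against EPI. MUT had 184 counts, all in 1 cell of embryo 8, and EPI 3, all in 1 cell. The count ratio was 128 (exact interval 43.3 to 629, counting error only, adjusted p = 0.197 without the filter, edgeR). That interval does not cover the spread between cells or embryos. For Pou6f1 against PrE the 95% interval of the log2 fold change ran from -1.63 to 10.36. Pou2f3 had 216 counts in MUT, all in embryo 8, against 0 in PrE (at least 122-fold higher in pooled counts, adjusted p = 0.206 without the filter, edgeR), and that difference has no upper bound.

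**Figure D4:**
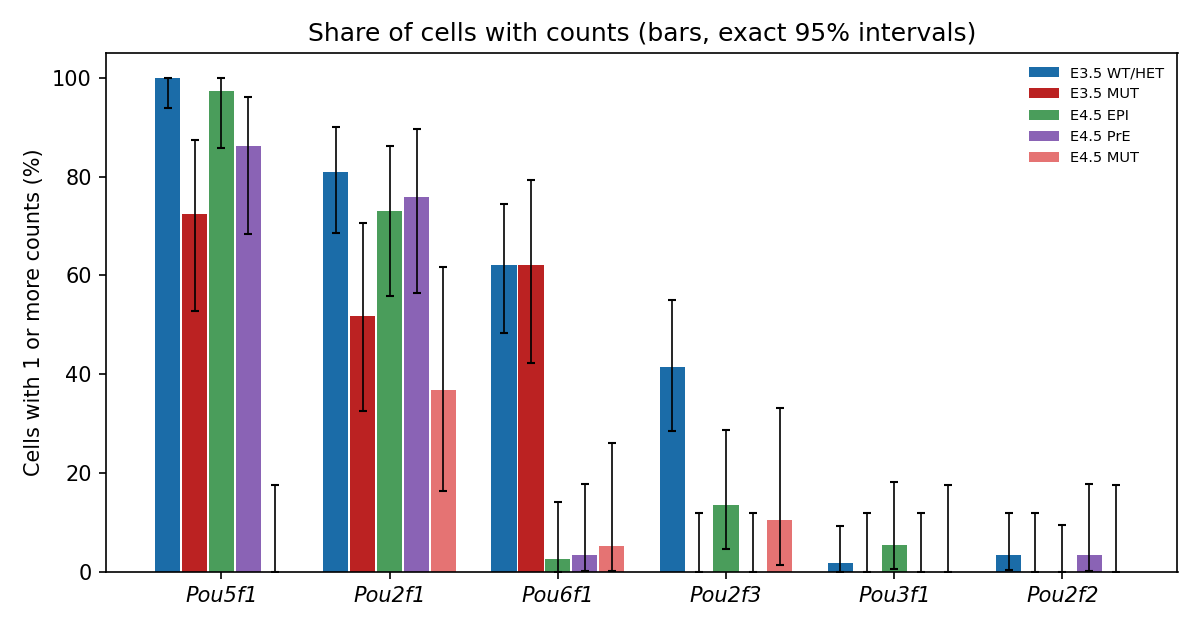
Share of cells with 1 or more counts (y axis, percent) for the 6 genes (x axis) in E3.5 WT/HET, E3.5 MUT, E4.5 EPI, E4.5 PrE and E4.5 MUT cells. Bars are shares with exact 95% intervals, which cover counting error only. Pou5f1 was found in 100% of E3.5 WT/HET cells and 72.4% of E3.5 MUT cells, and Pou2f3 in 41.4% and 0%.

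Among known targets of OCT4, E3.5 MUT embryos showed large losses. Of the 16 listed targets, 13 passed the filter, of which 7 fell and 1 rose, against 2.98% of all genes lower and 3.2% higher, with a median log2 fold change of -2.46 against -0.02 over all genes. Gdf3, a TGF-beta family ligand of pluripotent cells, had 1 count in MUT against 7192 in controls (count ratio 0.000283, exact interval 7.15e-06 to 0.00157, adjusted p = 7.2e-07, edgeR). Tdgf1, the Nodal co-receptor Cripto, was at 0.848 ± 0.91 CPM against 147.5 ± 118.5 CPM (adjusted p = 0.00192, edgeR). Utf1, a chromatin factor of pluripotent cells, fell by 5.32 on the log2 scale (SE 0.86, adjusted p = 0.00477, edgeR). Fbxo15, an F-box gene of pluripotent cells, was at 2996 ± 1534 CPM against 995.6 ± 226 CPM (log2 fold change 1.62 ± 0.26, adjusted p = 0.00511, edgeR). Sox2 and Nanog, the best known companions of OCT4, were named after their values were seen and were not called. Sox2 had 23.65 CPM in MUT and 27.45 CPM in controls (adjusted p = 0.767, edgeR), and Nanog 796 and 645 CPM (adjusted p = 0.499, edgeR).

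At E4.5, 9 of 16 targets were lower and 1 higher in MUT than in EPI, against 2.62% and 2.3% of all genes (median -2.49 against -0.03 over all genes). Gdf3 had no count and was at least 2100-fold lower. Lefty2, a Nodal inhibitor, had 1 count against 18563 (count ratio 0.000113, adjusted p = 0.00051, edgeR). Utf1 stood at 12.05 ± 9.06 CPM against 479.5 ± 150 CPM (adjusted p = 0.0013, edgeR). Dppa5a, an RNA-binding protein gene of pluripotent cells, was higher, with a log2 fold change of 0.61 ± 0.15 (adjusted p = 0.0471, edgeR). EPI was the high group for most of the list also against PrE, which has Pou5f1 RNA. There 12 of 16 targets were called higher in EPI and none lower, against 4.61% and 5.2% of all genes. The median log2 fold change was 1.97, against 0.03 over all genes. The part of this lineage difference in the MUT comparisons was not tested. Against PrE, 3 of 16 were lower in MUT (Tcl1, Utf1 and Gdf3) and 3 higher (Dppa5a, Nanog and Fbxo15). Of all genes, 2.07% were lower and 1.74% higher in that comparison. Nanog, the homeodomain factor of the epiblast, was at 525.6 ± 197 CPM in MUT and 1.06 ± 2.33 CPM in PrE (adjusted p = 0.00877, edgeR). Between HET and WT none of the targets was called, but edgeR called 0% of all genes in those comparisons.

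**Figure D5:**
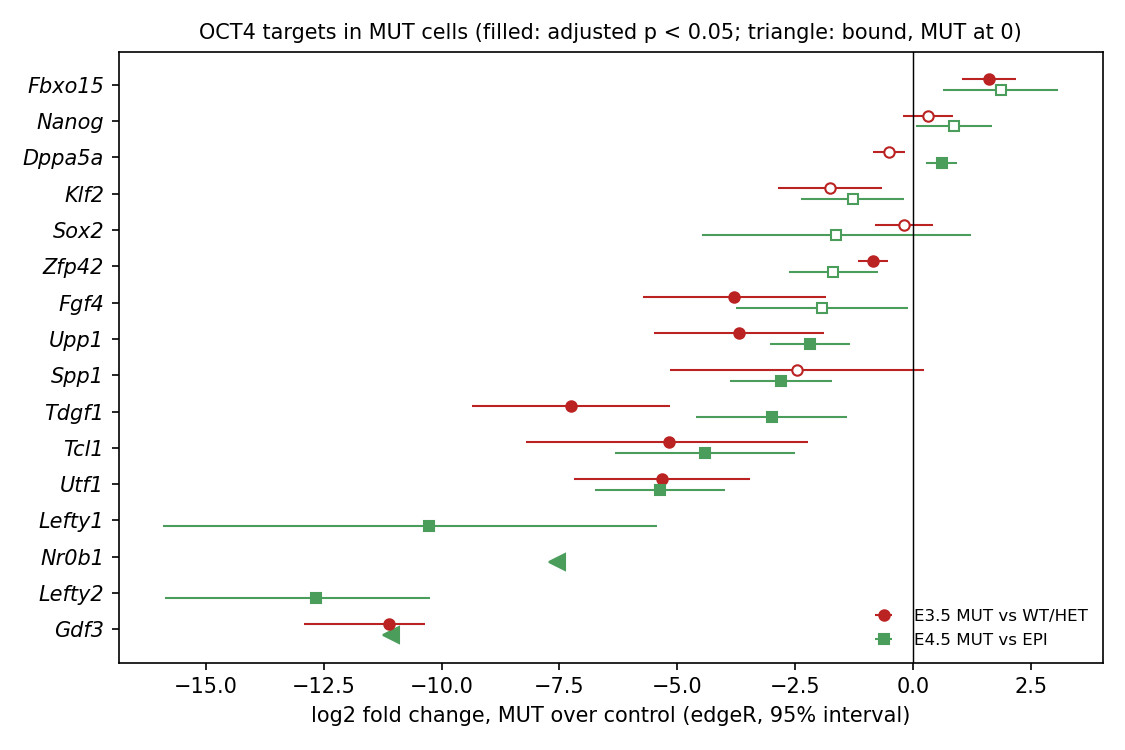
OCT4 targets (y axis) and their log2 fold change (x axis) in MUT against E3.5 WT/HET embryos (circles) and E4.5 EPI (squares), with 95% intervals. Filled symbols passed an adjusted p of 0.05 and triangles mark bounds where MUT had no count. At E3.5, 7 targets lie to the left and Fbxo15 to the right among the filled symbols.

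Among OCT4's protein partners 1 of 22 tested was called at E3.5, where 6.18% of all genes were. It was Tfcp2l1, a factor of naive pluripotency, at 373 ± 103 CPM in MUT and 716 ± 98.1 CPM in controls (log2 fold change -0.92 ± 0.18, adjusted p = 0.0121, edgeR). At E4.5, 5 of 23 were lower in MUT than in EPI and none higher, against 2.62% of all genes lower and 2.3% higher. They included the deacetylase Hdac1 (139.6 against 520.1 CPM, adjusted p = 0.00158), the poly(ADP-ribose) polymerase Parp1 (191 against 546 CPM, adjusted p = 0.00355) and the telomere-associated factor Rif1 (63.99 against 304.5 CPM, adjusted p = 0.00599, all edgeR). EPI was also high against PrE, which has Pou5f1 RNA. Of the 23 tested, 10 were called higher in EPI than in PrE and 1 lower, against 4.61% and 5.2% of all genes. Hdac1 and Rif1 stood at 174 and 77.4 CPM in PrE. The part of this lineage difference in the lower MUT values was not tested. In MUT against PrE, 1 of 23 was higher, Nanog, and 1 lower, the zinc finger factor Sall4 (207 against 432 CPM, adjusted p = 0.0412, edgeR). Of all genes, 1.74% were higher and 2.07% lower there.

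Factors that act on Pou5f1 itself were read against the same shares of all genes, 6.18% at E3.5, 4.92% against EPI and 3.81% against PrE. These shares count both directions, and the shares by direction are given above. Of 11 known activators, Zfp143 was higher at E3.5 (158 against 55.97 CPM, adjusted p = 0.0331, edgeR) and Esrrb lower than in EPI at E4.5 (8.696 against 50.85 CPM, adjusted p = 0.0479, edgeR). Nanog and Sall4, also on this list, were called against PrE as given above. Of the 10 known repressors, 9 were tested at E3.5, 8 against EPI and 9 against PrE. Mbd3, a subunit of the NuRD complex, was lower at E3.5 (9.59 against 22.3 CPM, adjusted p = 0.0485, edgeR) and lower than in EPI (37.96 against 131 CPM, adjusted p = 0.0247, edgeR). Eomes, a T-box factor of the trophoblast that is also on the TE marker list, was higher than in EPI (81.1 against 9.76 CPM, adjusted p = 0.0221, edgeR). Against PrE the nuclear receptor gene Nr2f2 was higher (6.68 against 0.0167 CPM, adjusted p = 0.0405, edgeR) and Dnmt3a lower (30.3 against 286 CPM, adjusted p = 0.0026, edgeR).

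Several of these factors changed with stage in WT and HET embryos. Nr5a2, the nuclear receptor LRH-1 and an activator of Pou5f1, fell from 46.7 ± 15.7 CPM at E3.5 to 3.77 ± 4.03 CPM in EPI (adjusted p = 0.00175, edgeR) and 4.18 ± 7.16 CPM in PrE (adjusted p = 0.0449, edgeR). In MUT it stood at 52.8 ± 30.3 CPM at E3.5 and 83.1 ± 3.59 CPM at E4.5. The PrE and MUT values of Nr5a2 are given after they were seen. Among the repressors, 4 of 7 tested were higher and 1 lower in EPI than at E3.5, against 15.5% of all genes higher and 16.4% lower. Mbd3, Ehmt2 and Dnmt3b rose by 2.58, 2.70 and 2.25 on the log2 scale (adjusted p = 8.07e-07, 1.84e-05 and 9.56e-05, edgeR). Eomes fell from 39.8 to 9.76 CPM (adjusted p = 0.0151, edgeR). In PrE 4 of 6 were higher, against 14.8% of all genes, led by the DNA methyltransferase Dnmt3a at 286 CPM against 12.6 CPM (adjusted p = 2.6e-07, edgeR).

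Genes next to Pou5f1 on chromosome 17 were read at E3.5. On the 3′ side Tcf19, Cchcr1 and Cdsn, the nearest 1962 bases away, were not called (adjusted p = 0.599, 0.476 and 0.588, edgeR). On the other side the nearest tested genes were the class I histocompatibility genes H2-Q7, H2-Q6 and H2-Q2. H2-Q7, 62245 bases away, stood at 70.8 ± 63.7 CPM in MUT and 15.3 ± 6.49 CPM in controls (log2 fold change 2.22 ± 0.52, adjusted p = 0.025, edgeR). The call was lost without embryo 11, 12 or 16 (adjusted p = 0.0512, 0.0902 and 0.0503, edgeR) and against WT alone (adjusted p = 0.07). H2-Q6 and H2-Q2 were not called (adjusted p = 0.146 and 0.131, edgeR). These genes are near-identical copies, so the split of reads between them is uncertain, and the mice were of mixed background.

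The genes most like Pou5f1 were ranked by Pearson correlation of log2(CPM + 1) over the 25 sums, among 6005 other genes with a mean of at least 20 CPM. They were Gdf3 (r = 0.887), Ndufv2 (0.849), Rab31 (0.807), Hsph1 (0.802) and Uba2 (0.789). The points share stage, genotype and, for EPI and PrE, the embryo. Over the 19 WT and HET sums alone the same coefficients were 0.425, 0.575, -0.173, 0.406 and 0.0122, so the likeness rests largely on the MUT sums. Gdf3 was at 0.0363 CPM in E3.5 MUT and 0 in E4.5 MUT, against 88.9 CPM in E3.5 WT, 216 CPM in EPI and 36.3 CPM in PrE.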

How the data were processed

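The deposited values were raw counts, 1 file per cell. The authors aligned read pairs to mm10 with STAR and HTSeq tallied the pairs of each Ensembl gene. Cells that failed their quality filters had been removed. Symbols and coordinates came from GENCODE M21 (GRCm38), which matched 49326 of 49671 gene identifiers. Rows that name no gene were left out: of all reads counted, 4.72% lay in no feature, 8.65% were ambiguous and 32.34% not unique. Without molecular identifiers reads are not independent molecules, so intervals cover counting error only.

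Counts were summed per embryo (embryo numbers from the study's sample table) and, at E4.5, per EPI or PrE. All columns could be assigned to a sample. Comparisons used edgeR 4.0.16 in R 4.3.3 (quasi-likelihood F test, TMM, filterByExpr, prior count 0.125, Benjamini-Hochberg over all genes tested, threshold 0.05). P-values measure the spread between embryos. Each fit held only the groups compared. HET against WT over both stages had stage as a covariate, and the interaction used all 19 embryos. Exact permutation tests enumerated all arrangements (Python 3.11.15). Shares of cells carry exact (Clopper-Pearson) 95% intervals. A group at 0 was set to 3 counts for fold bounds. Fits were tested on simulated data. Alternatives were DESeq2 1.42.0, its size factors, no filter or a mean of 10 CPM, cells weighted equally (limma 3.58.1), no shallow cells, WT controls only, an embryo block, and leaving out each embryo.

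Named genes were the 6 members, other POU genes by total counts, the 3 nearest tested genes on each side of Pou5f1, the 5 genes most correlated with it, and up to 3 called genes per direction from each list. Members and lists (24 OCT4 partners, 16 targets, 11 activators and 10 repressors of Pou5f1, 10 EPI, 10 PrE and 12 TE markers, 10 oocyte transcripts and other POU genes) were chosen with earlier results of these data known. 1 listed gene is not reported here.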

Additional observations from a re-analysis of the deposited data

Results flagged for a closer look

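Among 19 sets of embryos examined for a sample far from the rest, 3 held one. The nominal rate of about 1 in 20 does not carry over to genes at 0 in most sums. There a single embryo with counts fills the whole range. All 3 were in WT embryo 5 at E4.5 and each came from 1 cell or from very few counts. Pou2f2 in PrE was 1.1 CPM there and 0 in the other PrE sums. Pou6f1 in PrE was 2.1 CPM and 0 in the others. Pou3f1 in EPI was 1.29 CPM and the next highest 0.243 CPM.

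The loss of Pou5f1 RNA in MUT differed between E4.5 and E3.5 by the interaction term (adjusted p = 0.000545, edgeR). MUT had 4.3 CPM at E3.5 and no count at E4.5, where the fitted value depends on the prior count. With cells weighted equally the term was 0.37 and was not called (adjusted p = 0.782, limma).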

How the results depend on the processing

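Loss of Pou5f1 in MUT kept its direction in all 18, 15 and 15 alternatives of the E3.5, EPI and PrE comparisons. At E3.5 its log2 fold change lay between -6.53 and -5.94 with an adjusted p of at most 5.21e-05. Only the PrE comparison against WT alone lost the call (-12.9, adjusted p = 0.11). From E3.5 to EPI the fall was -0.798 with WT alone, without the call. With cells weighted equally the interaction for Pou5f1 turned to 0.37, and these uncalled log2 fold changes turned sign: Pou6f1 in E3.5 HET (-0.506), Pou2f3 in HET over both stages (-0.323), Pou2f1 in EPI against PrE (-0.347), Pou2f3 in EPI against E3.5 (-0.549) and Cchcr1 in E3.5 MUT (-0.275). PrE sums at E4.5 gave 0.252 for Pou2f1 and -0.131 for Pou2f3 in HET. WT controls alone gave 0.311 for Pou2f3 in MUT against EPI. Without shallow cells Pou2f3 in E3.5 HET was 0.0299 and the PrE dosage difference 0.117 CPM.

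With 1 embryo left out, the PrE dosage difference ran from -37.0 to 33.8 CPM and the stage-stratified one from -0.72 to -0.541. In E3.5 HET, Pou2f1 ran from -2.05 to 0.38, Pou2f3 from -4.78 to 0.846 and Pou6f1 from -0.729 to 0.543. In HET over both stages Pou2f3 ran from -0.728 to 1.1. In MUT, Pou2f3 against EPI ran from -10 to 0.655 and Pou6f1 against PrE from -4.83 to 5.41. Pou2f1 in EPI against PrE ran from -0.431 to 0.771. For the interaction the ranges were -1.35 to 0.258 (Pou2f1), -0.169 to 10.7 (Pou2f3) and -3.3 to 8.41 (Pou6f1). The cause of these turns was not tested.

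Genes called, over all alternatives, ranged from 435 to 1607 in E3.5 MUT (746 in the report), 48 to 1711 in MUT against EPI (637), 27 to 1223 in MUT against PrE, 649 to 1824 in EPI against PrE (958), 3026 to 5793 in EPI against E3.5 (3557), 2894 to 5191 in PrE against E3.5 (3420) and 470 to 1850 for the interaction (896). A replicate block on the embryo gave 0.693 for Pou5f1 in EPI against PrE (adjusted p = 0.279) and 840 calls, and changed no member's call. EPI and PrE sums of an embryo hardly deviated together (correlations 0.00894 to 0.0661), so they were not treated as paired. Depth and the 19 and 29 MUT cells limit what can be said of genes seen in 1 cell.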

Other observations

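Other POU genes were sparse. Pou4f1 had 464 counts, Pou3f3 302, Pou4f2 23, Pou5f2 10, Pou1f1 2 and Pou3f4 1, and Pou3f2 and Pou4f3 had 0. Pou3f3, a neural POU gene, stood in E3.5 MUT embryos at 2.62, 3.56, 1.12 and 25.2 CPM in embryos 10, 12, 17 and 19, against 0 to 1.61 CPM in WT and HET embryos. Its counts came from 9 of the 29 MUT cells (31%) but 7 of the 58 controls (12.1%), and 1 cell of embryo 19 held 182 of the 260 MUT counts. The log2 fold change of 4.11 ± 1.33 was not called (adjusted p = 0.0853, edgeR). At E4.5 MUT it had 1 count. Pou4f1 was at 3.14 ± 3.45 CPM in E3.5 WT and HET embryos and 0.401 ± 0.416 CPM in MUT (adjusted p = 0.277, edgeR).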
